A study of Mus musculus with 4 samples.

Results

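Interferon-stimulated genes are the genes that cells switch on when they sense type I, type II or type III interferon, and 40 of them were followed here through RNA-seq libraries of natural killer T (NKT) cells from the small intestinal lamina propria (SI-LP). The 40 were taken by symbol from the 25239 genes of the deposited count table. They comprise 15 antiviral effectors, 8 guanylate-binding proteins, 5 immunity-related GTPases, 3 interferon regulatory factors and 9 sensors, regulators and other genes. NKT cells are T cells whose receptor recognizes lipids presented by CD1d. They were sorted as live TCRβ+ cells that bound CD1d tetramers loaded with the lipid PBS57 and lacked B cell, myeloid and CD8 markers, from WT C57BL/6Jax mice that had received a nanobody against the enzyme ARTC2 before tissue harvest. All 4 libraries belong to this 1 condition, and all carry the same genotype, sort and nanobody treatment. Replicates 1 and 2 came from the second and replicates 3 and 4 from the first of 2 experiments. NKT cells of lymphoid organs were not analysed here. The values describe levels within SI-LP NKT cells and their spread, and no effect of a condition.

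Type I interferons (IFN-α and IFN-β) and type III interferons (IFN-λ) act through the kinases JAK1 and TYK2 and a complex with STAT2 and IRF9 that binds the interferon-stimulated response element. The type II interferon, IFN-γ, acts through JAK1 and JAK2 and leads to binding at the gamma-activated site. The antiviral effectors (ISG15, the IFIT, MX and OAS families) are the classical products of the type I response, whereas the guanylate-binding proteins and immunity-related GTPases, which attack vacuoles holding microbes, respond strongly to IFN-γ. Many of the genes answer to both.

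The libraries held between 3882803 and 8732858 counts on genes, so that 3 counts, the floor used here, stood for 0.287 to 0.750 CPM (counts relative to the size of the library, corrected by edgeR's TMM factors). TPM values, which also correct for gene length, were used for ranks of genes, ratios between genes and sums of a class. CPM values printed for different genes are not corrected for length. In replicates 1 to 4, markers of T cells (10 genes, such as *Cd3e*) made up 0.331%, 0.139%, 0.415% and 0.193% of all counts. Those of NKT1 cells (6 genes, such as *Tbx21*) made up 0.317%, 0.0882%, 0.401% and 0.216%. This list includes *Zbtb16*, which the paper counts among NKT2 and NKT17 markers. The summed share of epithelial markers (21 genes, such as *Epcam*) moved the other way within each experiment, with 0.0978%, 0.987%, 0.0186% and 3.0%. *Lyz1* alone gave 84299 of 116594 epithelial counts in replicate 4, against 3534 of 86234 in replicate 2. Of the 21 genes, 4 (*Fabp1*, *Apoa1*, *Apoa4* and *Chga*) were lower in replicate 2 than in replicate 1. In replicate 4, 0 of the 21 were lower than in replicate 3. Plasma cell markers held 0.667% and 0.850% in the second experiment (replicates 1 and 2) but 0.0238% and 0.0496% in the first (replicates 3 and 4). In replicates 1 and 2, *Jchain* alone gave 44022 of 48237 and 66662 of 74244 plasma cell counts. In the first experiment it had 11 and 780 counts. Of the 6 genes, 5 lay higher in both libraries of the second experiment than in both of the first (background 14.7%). *Prdm1* did not, with 156, 128, 152 and 106 CPM. Markers of other cells were also present, with the 12 myeloid markers at 0.00403% to 0.0180% of counts, the 8 stromal and endothelial markers at 0.00329% to 0.0127%, the 6 B cell markers at up to 0.00703%, the 5 mast cell markers at up to 0.00752% and *Cd8a* and *Cd8b1* together at up to 0.000149%. Within these lists *Pecam1* had 49 to 409 counts, *Lyz2* 39 to 259 and *Kit* 657 in replicate 2, whereas *S100a8* (neutrophils) and *Kdr* (endothelium) had 0 counts in all 4 libraries. The list for plasmacytoid dendritic cells held 0.0390% to 0.115%, most of it from *Ccr9*, a gut-homing receptor that T cells also express, with *Siglech* at 0 counts in each library. In such bulk samples, fewer cells of a type and less RNA per cell cannot be told apart.

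The windows around the start sites are shown first, as they were searched for the motifs through which both interferon pathways act. RefSeq windows of 300 bases (250 before and 50 after the start, build GRCm38.p6) were at hand for 27 of the 40 genes, with 31 windows in all, since some genes have a second start site. A gene was counted where any of its windows held a match. The response element was searched as GAAA, any 2 bases and GAAA, and the gamma-activated site as TTC, any 3 bases and GAA, on both strands. A response element lay in the windows of 17 of the 27 genes (63.0%), against 3.99% of all 27025 genes with a window. A gamma-activated site lay in 12 of 27 (44.4%), against 9.55% of all genes, and both motifs in 8 (29.6%, against 0.614%). All 4 guanylate-binding proteins and all 4 immunity-related GTPases with a window had a response element, as did 8 of 12 antiviral effectors, 1 of 4 sensors and regulators and 0 of 3 interferon regulatory factors. Of the 25 matches to the response element, 23 began within 170 bases before the start site, with a median at position -66. Matches are counted as letters only and overlapping matches were kept.

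Among the immunity-related GTPases, *Igtp*, *Irgm2* and *Tgtp1* have a gamma-activated site followed by a response element that begins 11 bases further on, in the same orientation. *Irgm1* has 2 overlapping response elements and no gamma-activated site in its window. The stretches are given 5′ to 3′ on the strand of the gene, with matches to either motif in capitals and 15 bases on each side where the start site allows.
Igtp: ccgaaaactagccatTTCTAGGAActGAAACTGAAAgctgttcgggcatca
Irgm2: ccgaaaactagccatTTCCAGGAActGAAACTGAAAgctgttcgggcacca
Tgtp1: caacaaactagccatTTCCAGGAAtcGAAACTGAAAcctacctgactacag
Irgm1: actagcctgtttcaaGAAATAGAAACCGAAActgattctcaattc
They lie at chr11:58199496-58199546 (plus strand), chr11:58214887-58214937 (plus), chr11:48992299-48992349 (minus) and chr11:48871421-48871465 (minus). The stretches of *Igtp* and *Irgm2* are identical at 49 of 51 bases, those of *Igtp* and *Tgtp1* at 34 and those of *Irgm2* and *Tgtp1* at 36. The same block in its wider setting is seen in the 250 bases before the *Igtp* start site (chr11:58199306-58199555, plus strand), where no other match occurs.
Igtp, 250 bases upstream: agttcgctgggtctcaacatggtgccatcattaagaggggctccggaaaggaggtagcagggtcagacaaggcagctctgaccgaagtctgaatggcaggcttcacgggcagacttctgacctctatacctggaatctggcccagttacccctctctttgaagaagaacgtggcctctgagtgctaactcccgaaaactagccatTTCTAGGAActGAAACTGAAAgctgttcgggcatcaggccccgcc

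Other classes are represented by the genes whose levels are described next. *Isg15* has 3 overlapping response elements, *Oas3* has 1, and *Ifit1* has 2. *Gbp2* has 1 and *Gbp7* has 1 beside 2 gamma-activated sites. *Irf1* has a gamma-activated site alone. A response element on the opposite strand reads TTTC, any 2 bases and TTTC.
Isg15: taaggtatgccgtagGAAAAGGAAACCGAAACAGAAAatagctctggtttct
Oas3: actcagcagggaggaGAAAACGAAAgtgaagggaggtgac
Ifit1: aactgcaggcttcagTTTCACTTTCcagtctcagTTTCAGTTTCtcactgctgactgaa
Gbp2: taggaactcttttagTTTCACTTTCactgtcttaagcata
Gbp7: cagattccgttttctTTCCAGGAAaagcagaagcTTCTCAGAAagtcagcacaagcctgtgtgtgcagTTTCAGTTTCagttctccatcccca
Irf1: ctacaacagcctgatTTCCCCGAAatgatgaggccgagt
Their positions are chr4:156200860-156200911 (minus strand), chr5:120777710-120777749 (minus), chr19:34640770-34640828 (plus), chr3:142620589-142620628 (plus), chr3:142530215-142530307 (plus) and chr11:53769909-53769947 (plus). The windows of *Samhd1*, *Ifit2* and *Ifi35* also held a gamma-activated site alone, and 6 genes (*Oasl1*, *Oasl2*, *Irf7*, *Irf9*, *Trim25* and *Xaf1*) had no match in any window. For *Oasl2* and *Irf7*, the bases after the start site were not found in a GENCODE transcript of the gene. The same held for *Bst2* and for the second window of *Ifit2*, so these start sites are less certain.

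**Figure D1:**
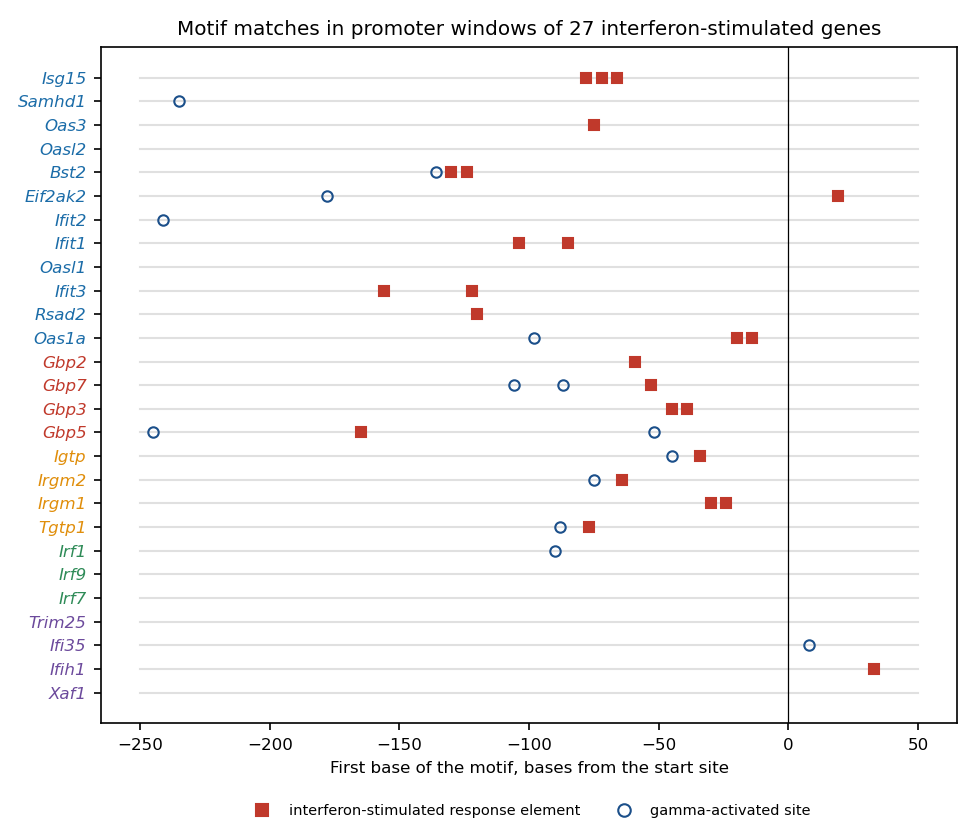
Positions of motif matches in the promoter windows of 27 interferon-stimulated genes, coloured by role; the x axis is the first base of the match in bases from the start site and each grey line spans 300 bases, onto which all windows of a gene are drawn. Most response elements (squares) crowd within 170 bases before the start, and the circle and square of *Igtp*, *Irgm2* and *Tgtp1* keep the same distance.

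The filter on low counts (10 counts or more in 2 libraries or more) was passed by all 40 genes and by 11689 of the 25239 genes in all, and 33 of the 40 reached 10 counts in every library. Together the 40 held 0.318%, 0.223%, 0.277% and 0.208% of the counts in replicates 1 to 4, or 0.257% ± 0.0505 (SD, n = 4). Each share has a 95% Wilson interval of about the width seen in replicate 4 (0.204% to 0.213%), which covers counting error only and is far narrower than the spread between libraries. Their median rank by mean TPM was the 60.8th percentile of the 11689 genes. By library, this median was at the 68.9th, 41.03rd, 68.6th and 63.0th percentile, lowest in replicate 2. By role, it was at the 79.2nd percentile for immunity-related GTPases, the 74.2nd for interferon regulatory factors, the 70.3rd for guanylate-binding proteins, the 61.6th for sensors and regulators and the 45.4th for antiviral effectors.

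A few genes carried most of the signal. *Igtp* accounted for 17.5% of the summed TPM of the 40, *Igtp* and *Isg15* together for 26.4%, and the 7 highest (*Igtp*, *Isg15*, *Samhd1*, *Irgm2*, *Parp14*, *Irf1* and *Zbp1*) for 52.4%. *Igtp*, *Isg15*, *Samhd1* and *Irgm2* were among the top 10% of the 11689 genes, and 25 of the 40 lay above the median. These 4 of 40 are the same share as that of all genes in the top 10%.

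Immunity-related GTPases mark or disrupt membranes around intracellular microbes. *Igtp* (Irgm3), a regulatory member of the family, had 344, 157, 449 and 228 CPM in replicates 1 to 4, or 393 ± 156 TPM (97.1st percentile). It had the highest TPM of the 40 genes in each library, although in replicate 2 its 239.0 TPM stood only just above the 238 TPM of *Isg15*. *Irgm2*, which lies next to it on chromosome 11 and is likewise regulatory, had 235, 48.0, 321 and 106 CPM (135 ± 90.3 TPM). *Irgm1*, the third regulatory member, had 36.7, 80.2, 47.5 and 60.5 CPM (67.7 ± 27.5 TPM). *Igtp* and *Irgm2* were thus high in replicates 1 and 3 and lowest in replicate 2, while *Irgm1* was highest in replicate 2 and lowest in replicate 1.

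The balance of the 3 regulatory members therefore differed between libraries. Per length, *Igtp* stood at 10.7, 2.23, 10.8 and 4.29 times the level of *Irgm1* in replicates 1 to 4. *Irgm2* stood at 4.21, 0.392, 4.44 and 1.15 times that of *Irgm1*. Replicates 1 and 3, from different experiments, gave nearly the same ratios, and the library of each experiment with more epithelial marker RNA gave the lower ones. The part of the epithelial RNA in these ratios was not tested. The effector GTPases were lower than the regulatory ones, with 13.0 to 25.3 CPM for *Iigp1* (16.0 ± 4.61 TPM) and 4.03 to 15.5 CPM for *Tgtp1* (7.80 ± 4.13 TPM). The value of *Tgtp1* is uncertain, since 84.6% of the 101-base runs of its longest transcript also occur in another gene of the table, chiefly *Tgtp2*.

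The guanylate-binding proteins coat the vacuoles and surfaces of microbes and help to open them to inflammasome sensing. Their genes form 2 clusters, with *Gbp2*, *Gbp3*, *Gbp5* and *Gbp7* on chromosome 3 (142496934 to 142638008) and *Gbp4*, *Gbp6*, *Gbp8* and *Gbp9* on chromosome 5 (105014153 to 105293699). *Gbp2*, a member that targets vacuoles of *Toxoplasma*, had 52.6, 27.4, 140 and 43.2 CPM, or 70.7 ± 48.0 TPM, and was highest in replicate 3. *Gbp7* had 214, 56.0, 187 and 49.2 CPM (62.1 ± 43.6 TPM). *Gbp9* had 209, 52.8, 140 and 82.5 CPM (60.1 ± 37.8 TPM).

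In *Gbp7* and *Gbp9* both libraries with more T cell marker RNA (replicates 1 and 3) lay above both others. *Gbp8* showed the same order with the widest gap, at 60.3, 9.56, 57.6 and 11.2 CPM. *Gbp4* was the exception, with 94.7, 124, 124 and 61.2 CPM. The remaining members *Gbp3*, *Gbp5* and *Gbp6* had mean levels of 24.2 to 38.8 CPM and were lowest in replicate 2 or 4. *Gbp6* is uncertain, as 61.4% of its 101-base runs occur in another gene, chiefly *Gbp10*, and *Gbp2* overlaps the microRNA gene *Mir6381* on the opposite strand, which these counts do not separate.

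Among the antiviral effectors, *Isg15*, a ubiquitin-like modifier, had 63.3, 58.3, 55.6 and 39.0 CPM (199 ± 56.5 TPM, 94.0th percentile). *Samhd1*, a phosphohydrolase that depletes deoxynucleotides and so restricts retroviruses, had 294, 262, 327 and 148 CPM (152 ± 49.7 TPM). These levels were even between libraries: the highest library stood at 1.62 times the lowest for *Isg15* and at 2.21 times for *Samhd1*. *Oasl2*, an oligoadenylate synthetase-like gene, was steadier still, with 61.0, 76.9, 58.7 and 62.7 CPM and a ratio of 1.31, the smallest among the genes above the floor in every library.

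*Oas3*, which makes the oligoadenylates that activate RNase L, was abundant but uneven, with 159, 19.1, 221 and 66.7 CPM (65.9 ± 49.8 TPM) and a ratio of 11.6. Its relatives did not follow it. *Oas2* had 2.78 to 7.74 CPM and was lowest in replicate 1, and *Oas1a*, of whose 101-base runs 15.7% occur elsewhere, had 1.0 to 7.36 CPM. *Eif2ak2* encodes the double-stranded RNA sensor PKR and had 84.3, 59.2, 21.5 and 27.7 CPM, with both libraries of the second experiment above both of the first.

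The IFIT genes, whose products bind foreign viral RNA, were lowest in the deepest library. *Ifit1* had 91, 2, 113 and 172 counts in replicates 1 to 4, *Ifit3* had 31, 3, 54 and 39, and *Ifit2* had 302, 66, 142 and 250. In replicate 2, *Ifit1* and *Ifit3* counts lay at or under the floor of 3. *Ifit3* shares 18.8% of its 101-base runs with *Ifit3b*. The 3 genes lie in a cluster on chromosome 19.

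*Mx1* had 42, 9, 25 and 1 counts and *Mx2* had 63, 1, 1 and 13, the lowest TPM of the effectors together with *Oas2*. MX proteins are dynamin-like GTPases that block viruses, and RefSeq lists both genes as transcribed pseudogenes in the C57BL/6J assembly. *Oasl1* had 0, 114, 36 and 99 counts and is the 1 member without a count in a library. *Rsad2* (viperin) had 5.69 to 17.2 CPM and *Bst2* (tetherin), which holds budding virus at the membrane, 7.84 to 14.7 CPM.

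**Figure D2:**
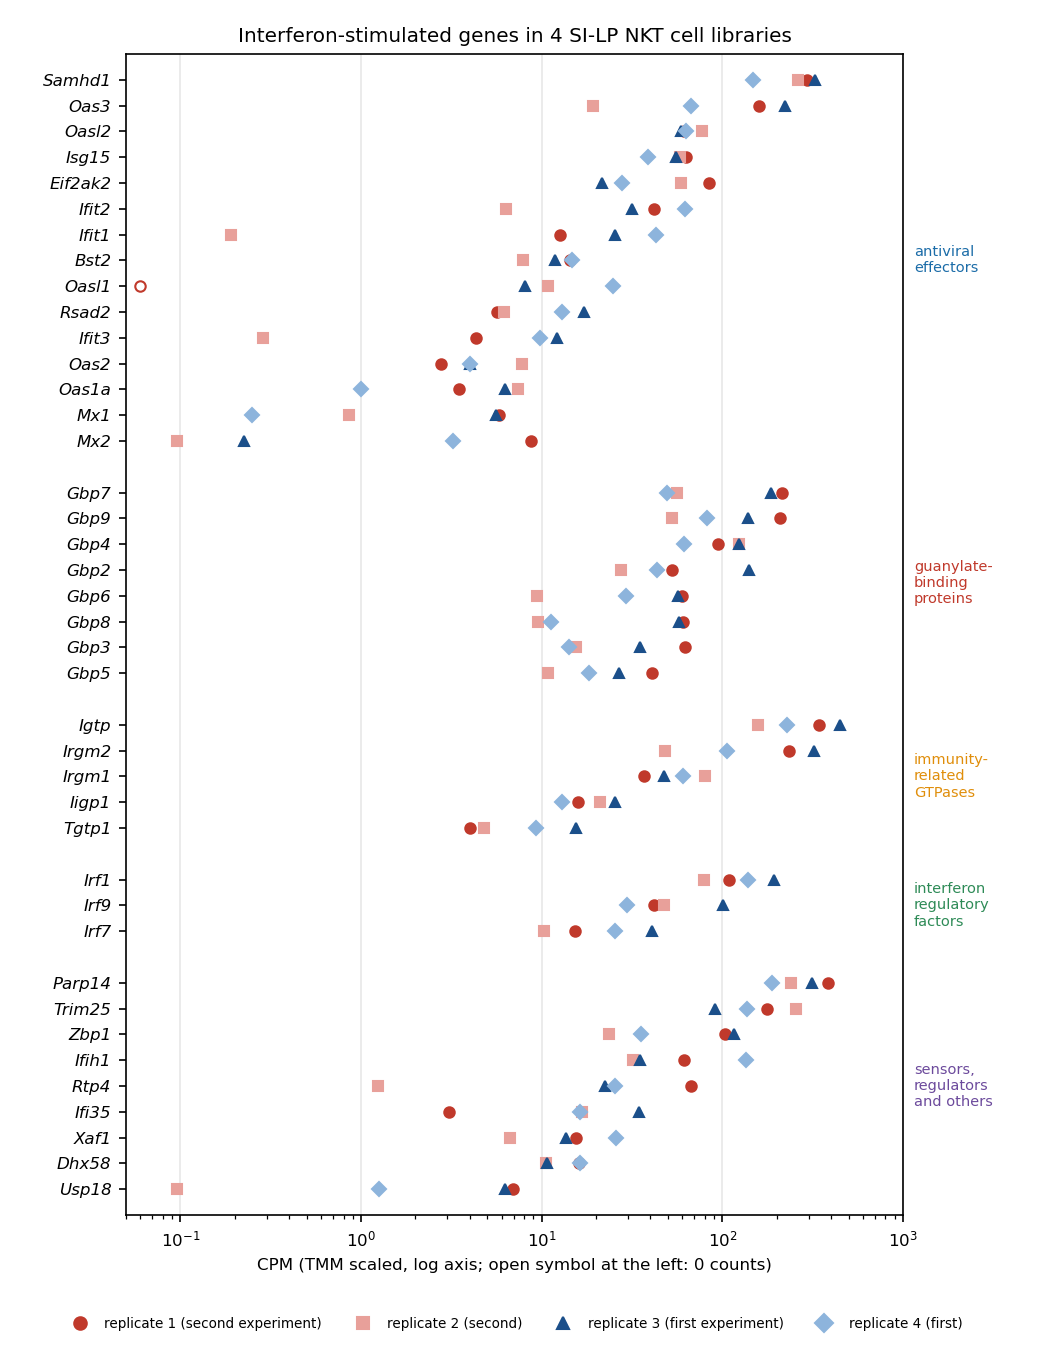
Levels of the 40 interferon-stimulated genes in each library, in TMM-scaled CPM on a log axis, ordered by mean level within each role. Warm symbols are the second and blue symbols the first experiment; the pale square (replicate 2) is the lowest point for 21 of the 40 genes, among them *Rtp4*, *Ifit1* and *Usp18*.

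The interferon regulatory factors are transcription factors of the response itself. *Irf1*, an early target of IFN-γ, had 109, 78.8, 193 and 138 CPM (103 ± 28.3 TPM, 86.9th percentile). *Irf9*, the DNA-binding subunit of the type I complex, had 41.9, 47.7, 101 and 29.5 CPM (55.2 ± 27.1 TPM). *Irf7*, the amplifier of type I interferon production, had 15.3, 10.3, 40.8 and 25.5 CPM (32.4 ± 15.8 TPM). All 3 were highest in replicate 3 (21.5% of all genes tested were). Both libraries of the first experiment lay above both of the second for *Irf1* and *Irf7* (14.4% of all genes tested).

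Of the remaining genes, *Parp14*, an ADP-ribosyltransferase, had 385, 239, 313 and 188 CPM (108 ± 39.0 TPM). *Zbp1*, a sensor of Z-form nucleic acid that can start necroptosis, had 103, 23.6, 116 and 35.2 CPM (87.0 ± 57.9 TPM). *Trim25*, a ubiquitin ligase of the RIG-I pathway, had 177, 257, 90.5 and 137 CPM (84.7 ± 44.6 TPM). Both *Parp14* and *Zbp1* were higher in replicates 1 and 3 than in replicates 2 and 4, whereas *Trim25* was highest in replicate 2 and lowest in replicate 3.

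*Rtp4*, a chaperone of receptors that is also interferon-induced, was the least even of the genes above the floor in every library, with 67.3, 1.24, 22.4 and 25.5 CPM and a ratio of 54.2. *Ifi35* had 3.06, 16.6, 34.7 and 16.2 CPM (ratio 11.4). The cytosolic RNA sensor *Ifih1* (MDA5) had 61.7, 32.1, 34.9 and 136 CPM. Its relative *Dhx58* (LGP2) was even, with 16.1, 10.5, 10.8 and 16.2 CPM and a ratio of 1.55. *Usp18*, which removes ISG15 from proteins and dampens the type I receptor, had 50, 1, 28 and 5 counts, while *Xaf1*, a pro-apoptotic gene, had 6.69 to 25.7 CPM.

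Summed within a library, the 13 guanylate-binding proteins and immunity-related GTPases stood at 1.70, 1.03, 2.05 and 1.29 times the TPM of the 15 antiviral effectors, or 1.52 ± 0.450 (SD, n = 4). The antiviral effectors summed to 789, 614, 652 and 486 TPM, the guanylate-binding proteins to 567, 220, 486 and 189, and the immunity-related GTPases to 777, 414, 851 and 438. The antiviral sums of replicates 2 and 3 were close, whereas both other sums were higher in replicate 3. Without the most abundant gene on each side of the ratio (*Igtp* among the 13 and *Isg15* among the 15), the mean ratio was 1.31 ± 0.356. Replicate 4 then lay at 0.969.

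**Figure D3:**
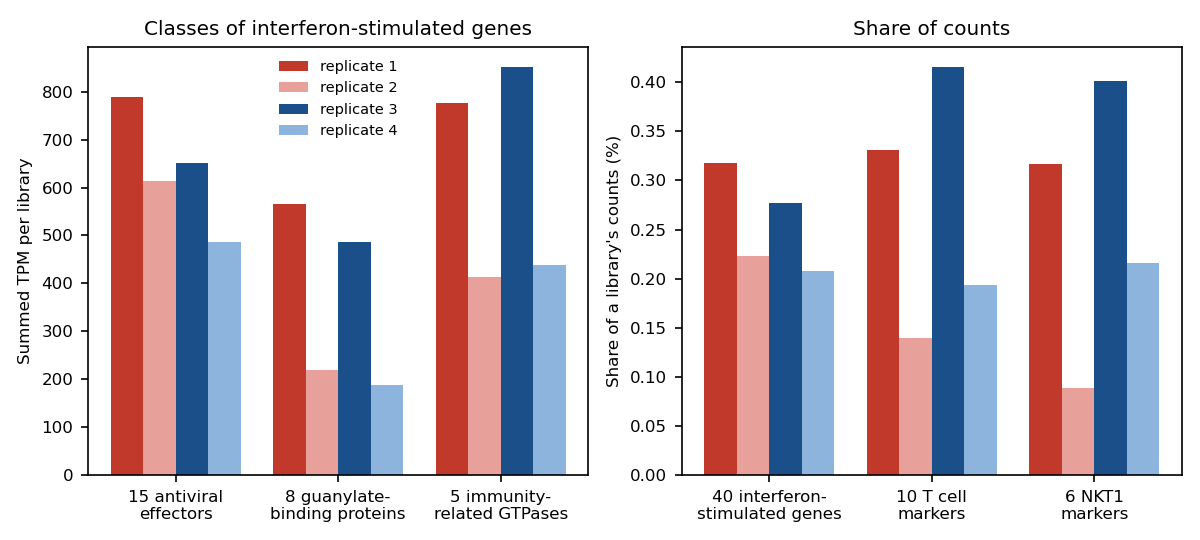
Left, summed TPM of 3 classes of interferon-stimulated genes in each library; right, the share of each library's counts (%) on the 40 genes and on T cell and NKT1 markers. The guanylate-binding proteins sum to 220 and 189 TPM in replicates 2 and 4, the libraries with the lower T cell and NKT1 shares.

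The experiment named in the labels is the only contrast among these libraries. It measures a difference between experiments, judged against the spread within them, and no effect of a condition. By edgeR's quasi-likelihood test, 0 of the 40 genes differed between the second and the first experiment, against 0% of the 11689 genes tested at an adjusted p under 0.05 and 2.13% at an unadjusted p under 0.05, which 0 of the 40 reached. By DESeq2 it was 0 of the 40, against 0.397% of the 10329 genes with an adjusted p. The gene with the lowest p was *Eif2ak2*, 1.54 ± 0.74 (SE) log2 units higher in the second experiment (adjusted p = 0.9998). Fitted differences were above 0 for 18 genes and below 0 for 22, with a median of -0.08 against 0.04 over all genes, and this median turned to 0.15 against 0.28 with library size alone as the scale. Both libraries of the second experiment lay above both of the first for 3 genes (background 14.7%) and below them for 6 (background 14.4%). The labels do not say that the libraries are of separate mice, so the spread may be in part technical, and the median standard error of 1.06 log2 units per gene limits what this test can show.

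Differences within the experiments compare 1 library with 1 library. The fitted differences between the experiments rest on all 4 libraries, so the sizes of the 2 kinds are not directly comparable. Between replicates 1 and 2, the median log2 difference of the 40 genes (replicate 2 minus 1) was -0.89 against 0.13 for all genes tested. Between replicates 3 and 4 (replicate 4 minus 3) it was -0.70 against 0.07. With library size alone as the scale, the median of all genes shifted by 0.26 and 0.34, and the distance of the 40 genes from it stayed at -1.01 and -0.76. These are differences of single libraries, with no test.

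In replicate 2, 18 genes were lower than in replicate 1 by over 1 log2 unit (background 25.1%) and 5 were higher (background 34.0%). In replicate 4, 14 were lower than in replicate 3 by that much (background 19.5%) and 3 were higher (background 30.5%). In both experiments 8 of the 40 (*Gbp3*, *Gbp7*, *Gbp8*, *Irgm2*, *Oas3*, *Zbp1*, *Mx1* and *Usp18*) were lower by over 1 log2 unit, against 8.21% of all genes. *Oasl1* alone was higher in both, against 19.0%. Replicate 2 was the lowest of the 4 libraries for 21 of the 40 genes (background 26.3%), replicate 4 for 10 (background 21.4%), replicate 1 for 6 (background 29.2%) and replicate 3 for 3 (background 23.1%). Replicate 3 was the highest for 15 genes (background 21.5%), replicate 1 for 13 (background 25.2%), replicate 4 for 7 (background 24.6%) and replicate 2 for 5 (background 28.6%).

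The guanylate-binding proteins had the lowest medians of the classes. Their median difference was -1.96 in replicate 2 against 1 and -1.14 in replicate 4 against 3. Of the 8 genes, 7 and 8 were below 0, beside 5491 and 5571 of the 11689 genes tested. Relative to the median of all genes these were -2.08 and -1.21, and relative to that of the T cell markers they were -0.84 in the second experiment and 0.34, above 0, in the first. The antiviral effectors had medians of -0.51 and -0.01 and the interferon regulatory factors -0.46 and -0.67. The immunity-related GTPases differed in sign between the experiments, with 0.23 and -0.95, as did the sensors and regulators, with -0.93 and 0.18. On the T cell marker scale the medians of these 4 classes were all above 0, from 0.18 to 1.67.

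Markers of the sorted cell were lower in the same libraries. The medians of the 10 T cell markers were -1.11 and -1.48 in these differences, those of the 6 NKT1 markers -1.94 and -1.22, and those of the 21 epithelial markers 2.58 and 5.57. Relative to the T cell markers, the 40 genes had medians of 0.23 and 0.79, the opposite sign. Of the 40, 12 and 17 stood more than 1 log2 unit above the T cell median, against 55.5% and 66.3% of all genes tested. The part of the cell mixture in the differences was not tested.

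**Figure D4:**
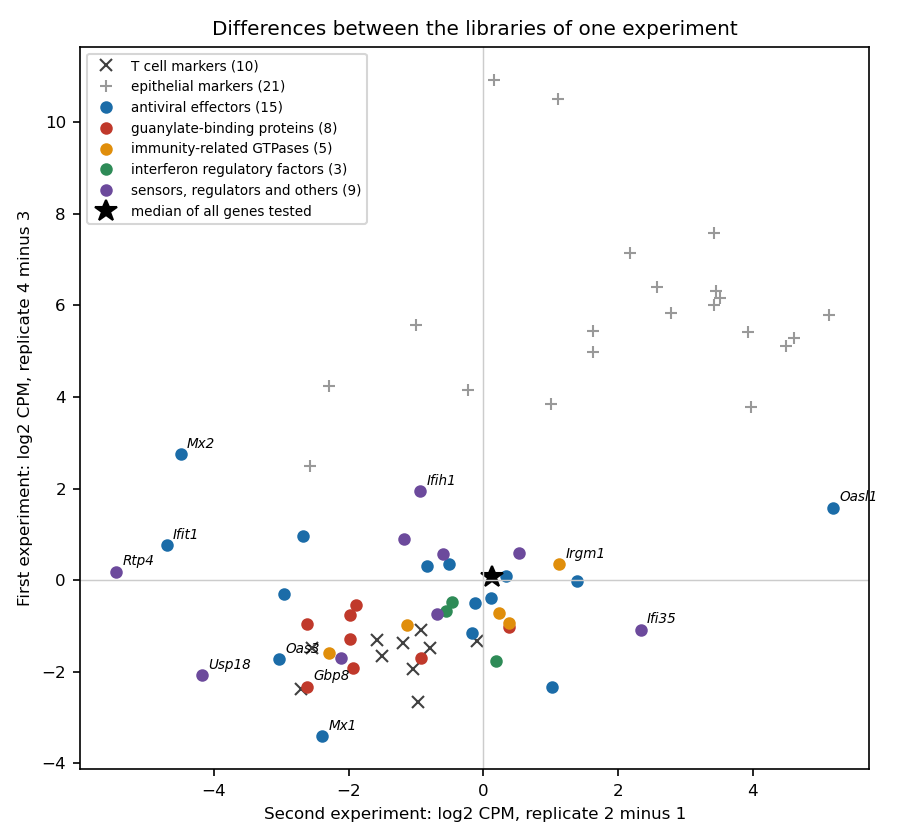
Difference in log2 CPM between the libraries of the second (x axis, replicate 2 minus 1) and the first experiment (y axis, replicate 4 minus 3), 1 point per gene. The T cell markers (crosses) lie at the lower left, with 7 of the 8 guanylate-binding proteins below 0 on both axes, the epithelial markers (plus signs) lie high, and the star is the median of all genes tested at 0.13 and 0.07. Of the 11689 genes tested, 3516 were below 0 in both differences.

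Upstream, the ligand genes differed in whether counts were found. *Ifng*, which encodes IFN-γ, a hallmark cytokine of NKT1 cells, had 82.9, 35.5, 108 and 75.7 CPM (167 ± 58.2 TPM, 92.6th percentile). Of the 10 type I and type III ligand genes examined, 9 (*Ifnb1*, *Ifna1*, *Ifna2*, *Ifna4*, *Ifna5*, *Ifne*, *Ifnz*, *Ifnl2* and *Ifnl3*) had 0 counts in all 4 libraries, which allows up to 0.287 to 0.750 CPM. *Ifnk*, a type I ligand, had 0, 4, 3 and 0 counts, above the floor in replicate 2 alone. RNA of the 9 was therefore not detectable at this depth.

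The receptor chains were unequal. *Ifngr1*, the ligand-binding chain of the IFN-γ receptor, had 527, 332, 871 and 310 CPM (652 ± 288 TPM, 98.3rd percentile). *Ifngr2*, its signalling chain, had 5.28, 29.6, 4.70 and 55.5 CPM (30.5 ± 29.1 TPM). Per length, *Ifngr1* stood at 99.7, 11.2, 185 and 5.57 times *Ifngr2*, so the imbalance was widest in replicates 1 and 3. *Ifngr2* was high in the libraries with more epithelial marker RNA, and the part of that RNA in its level was not tested.

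The type I receptor chains *Ifnar1* and *Ifnar2* had 208, 60.5, 174 and 82.7 CPM and 177, 59.4, 94.1 and 73.7 CPM. *Ifnlr1*, the specific chain of the IFN-λ receptor and known from epithelium, had 0, 14, 0 and 1 counts. Its partner *Il10rb*, shared with the interleukin-10 receptor, had 10.7 to 32.7 CPM. Both type I chains were thus highest in replicate 1, and *Ifnlr1* counts came almost wholly from replicate 2.

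Of the signal transducers, *Jak1*, used by all interferon receptors, had 1028, 502, 831 and 454 CPM, and *Jak2*, used by the IFN-γ receptor, had 774, 180, 666 and 196 CPM. Both were higher in replicates 1 and 3 than in replicates 2 and 4. *Tyk2* and *Stat2*, used by the type I and type III receptors, had 28.0 to 80.7 and 27.2 to 103 CPM. *Jak1* overlaps *Raver2* on the opposite strand and *Stat2* overlaps *Apof*, and reads of these exons cannot be assigned with certainty.

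Other interferon regulatory factors included *Irf2*, a repressor at response elements, with 54.3 to 157 CPM. *Irf3*, which drives IFN-β transcription, had 22.8 to 36.4 CPM and *Irf5*, which overlaps *Tnpo3*, 7.75 to 22.9 CPM. *Irf8*, a factor of myeloid and B cells, had 5.83, 21.9, 4.93 and 26.5 CPM and was high in replicates 2 and 4. Of the inhibitors, *Socs1* had 0, 0, 16 and 23 counts, present in the first experiment only (edgeR's quasi-likelihood test, adjusted p = 0.9998 and unadjusted p = 0.0348). *Socs3*, *Ptpn2* and *Pias1* were even, with ratios of 1.76, 1.70 and 1.92 between the highest and the lowest library, and *Ptpn6* had 98.7, 17.7, 96.6 and 40.99 CPM.

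**Figure D5:**
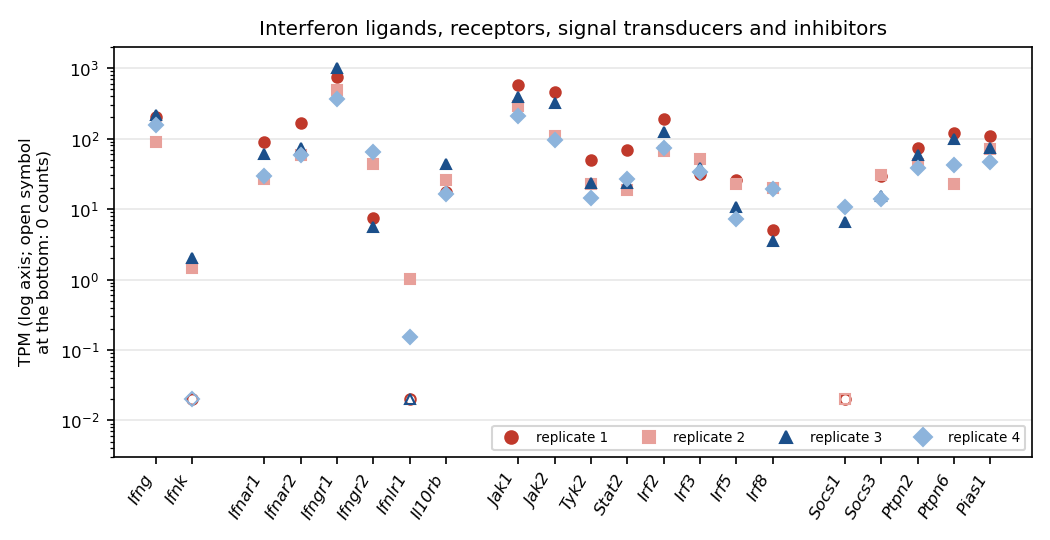
TPM (log axis) in each library of interferon ligands with a count, receptors, signal transducers and inhibitors; open symbols at the bottom are 0 counts. *Ifngr1*, *Jak1* and *Jak2* lie near or above 100 TPM in each library, and *Ifngr2* spreads from 5.48 to 65.5 TPM.

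A further list of 42 interferon-stimulated genes was taken for comparison, of which 36 passed the filter and 0 differed between the experiments by edgeR (0 at an unadjusted p under 0.05). Their median rank was the 71.7th percentile. The 5 highest by TPM were *Sp100* (a nuclear body protein), *Ly6a* (Sca-1), *Ifitm2*, *Mndal* and *Ifitm3*. *Sp100* had 629, 158, 631 and 211 CPM, with replicates 1 and 3 above replicates 2 and 4, as for *Igtp*. *Ifitm2* and *Ifitm3*, membrane proteins that block viral entry, had the opposite order, with 9.03, 81.9, 13.9 and 71.2 CPM and 33.3, 62.5, 10.8 and 44.99 CPM.

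*Ly6a* had 160, 17.9, 80.6 and 70.7 CPM and *Mndal* 197, 120, 89.8 and 66.0 CPM. The list's median differences within the experiments were -1.05 and -0.65, beside -0.89 and -0.70 for the 40 genes. In its promoter windows, a response element lay in 16 of 34 genes (47.1%) and a gamma-activated site in 4 (11.8%).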

How the data were processed

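Paired 101-base reads of 4 libraries of sorted SI-LP NKT cells (low-input RNA kit) were processed by the authors. Per the file header, featureCounts 1.6.4 counted primary alignments of read pairs on exons of RefSeq genes (mm10), without a strand option, and the authors deposited raw counts and, as another column, gene lengths, which are not a measurement. The methods name HISAT2, GRCm39 and a NovaSeq, the labels GRCm38.p6 and a HiSeq. Gene coordinates follow the deposited table. The table has 6 library columns, of which 2 match no sample label and were not used.

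From the counts, CPM (edgeR TMM factors), TPM (deposited lengths), log2 CPM (prior count 2) and shares with 95% Wilson intervals were computed. Genes reaching 10 counts in 2 or more libraries entered the quasi-likelihood test of edgeR, adjusted by Benjamini-Hochberg; levels, ratios, motifs and within-experiment differences have no test. *Rn45s* took 7.36% to 28.1% of the counts. Intervals and floors cover counting error only, as PCR reads without molecular identifiers are not independent.

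The members, gene lists, markers and motifs were chosen with earlier results of these data known. Library values are given for the 3 highest genes of each role by mean TPM, the 3 most and 3 least even genes and the 5 highest of the comparison list; pathway genes and other members were described beside them. Shared sequence was sought against GENCODE vM39 transcripts, and promoter windows came from RefSeq (GRCm38.p6). Statistics ran in DESeq2 1.42.0 and edgeR 4.0.16 (with limma 3.58.1) under R 4.3.3; tables were made with pandas 2.3.3, scipy 1.17.1 and numpy 2.4.6 under Python 3.11.15. Alternatives were DESeq2, 2 other scalings, other filters on low counts, CPM in place of TPM, counts without *Rn45s* or the 10 most abundant genes, the T cell marker scale, and leaving out each replicate. A pathway gene and a marker gene of the lists are not reported here.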

Additional observations from a re-analysis of the deposited data

How the results depend on the processing

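Between the experiments, the count of genes called among all tested was 0, and became 41 with DESeq2 and 60 with no filter on low counts, while leaving out 1 replicate gave 0 to 73 (7 without replicate 3 and 73 without replicate 4). Such a fit leaves 1 experiment with 1 library, which is assumed to vary like the pair of the other. The cause of these differences was not tested. The count among the 40 interferon-stimulated genes was 0 in each of these fits, and at an unadjusted p under 0.05 it reached 1 with library size alone, 2 without replicate 1 and 1 without replicate 2. Their median difference between the experiments ran from -1.04 (without replicate 1) to 0.39 (without replicate 3), so its sign rests on single libraries. Their mean share of counts was 0.313% without *Rn45s* and 0.337% without the 10 most abundant genes, since the total is then smaller. Within the experiments, the medians of -0.89 and -0.70 became -0.63 and -0.36 with library size alone and reversed to 0.23 and 0.79 relative to the T cell marker median. Scaled to the summed T cell markers, 38 of 40 mean levels moved by less than their spread between replicates. The exceptions were *Oasl2* (79.9 CPM) and *Irgm1* (75.0 CPM). Under the other scalings all 40 mean levels moved by less than that spread. Leaving out 1 of 4 libraries cannot move a mean by more than that spread, so this comparison cannot show stability. That spread is wide, and a left-out library moved 6 mean levels by over 1.5 times. Without replicate 1, *Mx2* went from 3.08 to 1.19 CPM and *Rtp4* from 29.1 to 16.4. Without replicate 3, *Gbp2* went from 65.9 to 41.1, and without replicate 4 *Ifit1* went from 20.3 to 12.7, *Oasl1* from 10.9 to 6.32 and *Ifih1* from 66.1 to 42.9. When a replicate was left out, the median percentile ran from 57.7 to 65.8. The mean ratio of GTPase classes to antiviral effectors then ran from 1.34 to 1.68. As a mean of 4 libraries, this ratio could not have moved beyond its spread either. Ranking members under the filter could give no other value, as all 40 passed it. No paired analysis was possible because the libraries form 1 group. Counts near 3 in a library leave *Ifit1*, *Ifit3*, *Mx1*, *Mx2*, *Oasl1* and *Usp18* without a ratio between libraries.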

Other observations

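Of 44 values examined for a library far from the other 3 by Dixon's test, 0 passed, where chance gives 2.2. This covers those values only and does not mean that no library stood apart. The epithelial marker *Lyz1*, for example, had 301, 338, 10.5 and 21072 CPM in replicates 1 to 4.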
